A study of Homo sapiens with 18 samples.

Results

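Expression of 10 genes for secreted matrix-associated proteins was examined in human melanoma cells that overexpressed the transcription factor MAFG or, as control, GFP. The genes were chosen by name, as SPP1, TNC, SPARC, THBS1, THBS2, MGP, POSTN, MIA, MATN2 and FN1, and each matched 1 of the 58870 genes in the count data. They had been picked with their changes in these same cells known, so their levels and changes are given as descriptions, without p-values. The 3 human melanoma cell lines were WM164 and SKMel28, described by the study as high in MITF and low in AXL, and A375, described as low in MITF and high in AXL. Each line had been transduced with lentivirus carrying, under an EF1α promoter, either Myc-DDK-tagged MAFG or GFP, selected with blasticidin, and grown in RPMI medium with fetal bovine serum. RNA from each of the 6 groups was sequenced in 3 libraries, 18 in all, and no source used here says whether the 3 came from separate cultures, so the errors may measure technical spread alone.

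Matricellular proteins are secreted into the extracellular matrix, where they mainly tune how cells attach, spread, migrate and respond to growth factors through integrins and other surface receptors. They are typically low in resting adult tissue and high in development, wound repair and tumors. Osteopontin (SPP1), tenascin-C (TNC), SPARC, the thrombospondins (THBS1, THBS2) and periostin (POSTN) belong to this class, and fibronectin (FN1), matrix Gla protein (MGP) and matrilin 2 (MATN2) are matrix components they meet. Melanoma inhibitory activity (MIA) is a small secreted protein of pigment cell tumors that binds fibronectin and is measured in serum as a melanoma marker. MAFG is a small MAF protein, which lacks an activation domain of its own and binds DNA as a dimer, often with NRF2 or BACH1, at Maf recognition elements and antioxidant response elements.

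RefSeq promoter windows (GRCh38.p14) were found for 8 of the 10 genes, all but MGP and MATN2. Promoters are shown for SPP1, TNC, MIA and FN1, the 4 most abundant per length among the 5 genes that rose with MAFG in A375 cells, and only the bases before the first exon are printed, 5′ to 3′ on the strand of the gene. Capitals mark matches, on either strand, to one arm of a Maf recognition element (TGCTGA) or to the core of an antioxidant response element (TGANNNNGC).
SPP1, chr4:87975464-87975666 (plus strand): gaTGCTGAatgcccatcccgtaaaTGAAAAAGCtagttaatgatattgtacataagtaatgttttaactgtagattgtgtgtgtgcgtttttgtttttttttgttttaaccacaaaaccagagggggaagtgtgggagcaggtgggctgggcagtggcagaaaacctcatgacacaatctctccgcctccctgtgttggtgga
TNC, chr9:115118208-115118407 (minus strand): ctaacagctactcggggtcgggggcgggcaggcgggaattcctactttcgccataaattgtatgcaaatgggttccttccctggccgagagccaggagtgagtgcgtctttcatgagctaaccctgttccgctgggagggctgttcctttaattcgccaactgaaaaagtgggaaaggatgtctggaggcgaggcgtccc
MIA, chr19:40774910-40775159 (plus strand): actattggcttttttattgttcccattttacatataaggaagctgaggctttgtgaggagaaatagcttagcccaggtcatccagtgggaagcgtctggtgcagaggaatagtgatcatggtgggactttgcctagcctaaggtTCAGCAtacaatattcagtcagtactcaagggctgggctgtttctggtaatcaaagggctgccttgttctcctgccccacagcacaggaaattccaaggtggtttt
FN1, chr2:215436074-215436318 (minus strand): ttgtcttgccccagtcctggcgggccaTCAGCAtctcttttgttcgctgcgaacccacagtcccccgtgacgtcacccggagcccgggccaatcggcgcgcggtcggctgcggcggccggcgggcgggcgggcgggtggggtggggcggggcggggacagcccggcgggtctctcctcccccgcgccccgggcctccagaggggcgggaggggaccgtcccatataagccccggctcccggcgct
Within the 250 bases before the start, SPP1 held TGCTGA from position -248 and TGAAAAAGC from position -226, counted from the RefSeq start, while MIA held TGCTGA on its reverse strand (printed as TCAGCA) from -106 and FN1 held it likewise from -223. The MIA window lies in an intron of a longer GENCODE transcript of that gene. TNC held no match, nor did SPARC, THBS1 and THBS2, and POSTN held the AP-1 site TGAGTCA from -220 and TGAAGTTGC from -107. These are common letters, since 14.1% of 27305 promoters of this length held TGCTGA, 35.4% held TGANNNNGC and 6.6% held TGANTCA on either strand. The melanocyte M-box TCATGTG and the E-box CATGTG, held by 2.6% and 9.5% of the promoters, matched none of the 8 windows.

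Library depth ranged from 20122172 to 39025042 counts (median 31061375), and levels are given as CPM, counts relative to the TMM-normalized size of each of the 18 libraries (mean ± SD, n = 3 libraries), or, between genes, as the deposited TPM, which also accounts for transcript length. MAFG itself was higher in every MAFG library than in every GFP library of its line, at 53.0 ± 4.58 against 25.8 ± 2.91 CPM in WM164, 37.3 ± 1.53 against 24.1 ± 3.47 in SKMel28 and 47.4 ± 9.25 against 27.0 ± 4.98 in A375 cells. It was tested with edgeR's quasi-likelihood test, adjusted over all tested genes (Benjamini-Hochberg). Its log2 fold change was 1.04 ± 0.09 (standard error) in WM164 cells (adjusted p = 6.37e-08 by edgeR). In SKMel28 cells the change was 0.64 ± 0.10 (adjusted p = 0.000128 by edgeR), under a log2 fold change of 1. In A375 cells it was 0.80 ± 0.17, larger than in SKMel28 but with a wider error (adjusted p = 0.0655 by edgeR). The deposited TPM of MAFG gave larger differences, from 2.89 ± 0.543 to 24.5 ± 3.34 in WM164, from 3.96 ± 0.641 to 16.97 ± 2.66 in SKMel28 and from 4.22 ± 0.291 to 25.2 ± 2.88 in A375 cells. Of 9 melanocytic markers, 9 were above 3 counts in WM164 and SKMel28 cells, whereas MLANA, TYR and DCT stayed at 3 counts or fewer in every A375 library. Of 3 leukocyte markers, PTPRC was at 3 counts or fewer in all groups, while CD68, a lysosomal protein of macrophages, was at 129 ± 7.77 CPM with GFP and 54.7 ± 3.24 CPM with MAFG in WM164 (log2 fold change -1.24, adjusted p = 7.58e-11 by edgeR), at 357 ± 39.9 and 230 ± 3.23 CPM in SKMel28 (-0.64, under the fold limit) and at 47.7 ± 7.3 and 55.4 ± 5.71 CPM in A375 cells. The 3 leukocyte markers summed to 40.6 to 392.4 CPM over the libraries, and their part in the results was not tested. Nearly all of that sum was CD68, as LYZ averaged at most 1.67 CPM in the lines where it was tested. The summed level of 4 epithelial markers was at most 1.41 CPM in any library.

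In control cells the lines differed widely in which of the 10 genes they transcribed. Per length, FN1 was the highest of the 10 in WM164 and SKMel28 cells, at 962 ± 149 and 1494 ± 109 TPM, which placed it 76th and 50th among all genes, while in A375 cells it was at 2.11 ± 0.866 TPM and 10311th. SPARC led instead in A375 control cells at 116 ± 38.1 TPM, followed by THBS1 at 61.5 ± 3.69 TPM. The 10 genes together took 1.13 to 1.26% of all counts in WM164 control libraries and 1.11 to 1.19% in SKMel28, most of it FN1, but 0.0753 to 0.0798% in A375. With GFP, 10 of the 10 genes were called different between WM164 and A375 and 10 of 10 between SKMel28 and A375, which required a log2 difference beyond 1 in either direction and an adjusted p no greater than 0.05, against 46.7% and 43.8% of all 18767 tested genes. Between WM164 and SKMel28 cells 4 of 10 were called (SPP1, SPARC, THBS1 and MGP), against 28.7% of all genes. Of the 10, 8 were called higher in WM164 and in SKMel28 than in A375 (26.0% and 24.4% of all genes), and THBS1 and POSTN were called lower (20.6% and 19.4%).

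**Figure D1:**
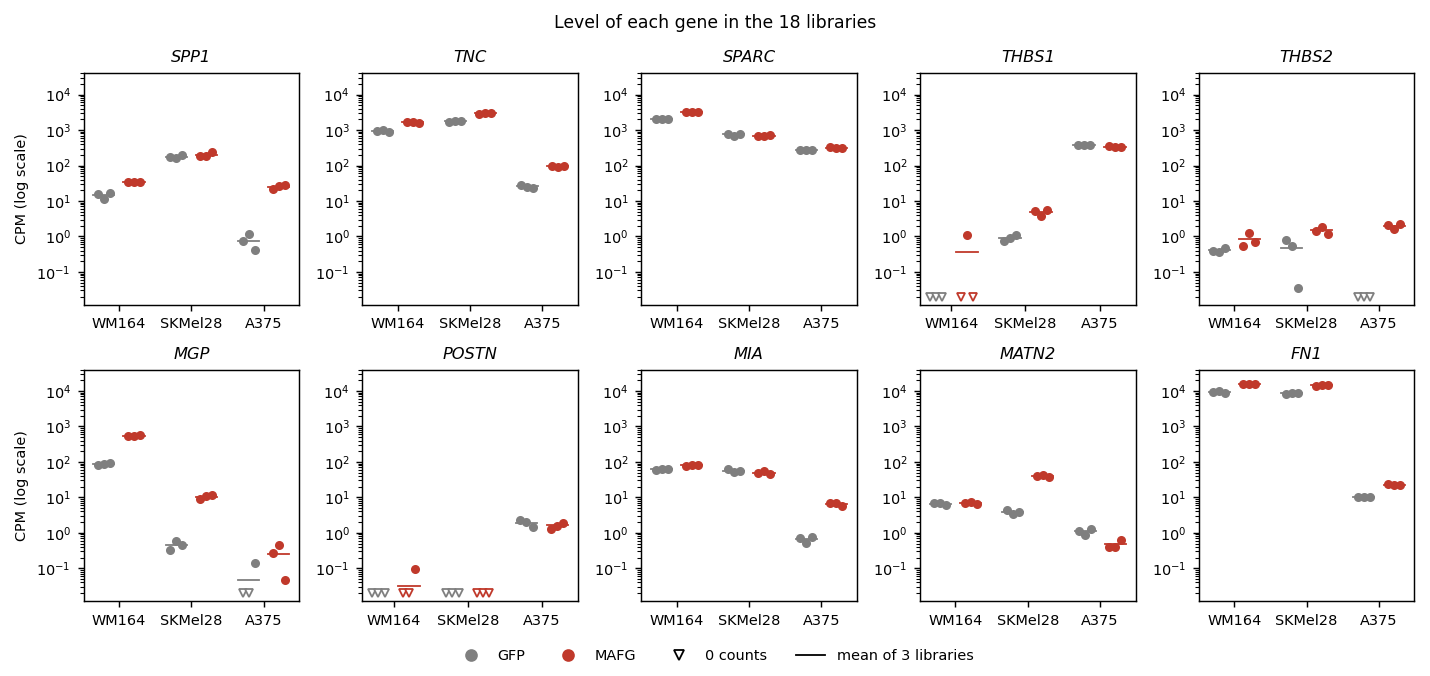
CPM of the 10 genes in each of the 18 libraries (log scale, 1 point per library, bar at the mean of 3 libraries, open triangles at the bottom for libraries with 0 counts). FN1 sat near 10 CPM in A375 control cells and between 8421 and 9922 CPM in control libraries of the other lines, whereas THBS1 was near 380 CPM in A375 and at 0 counts in WM164 control cells.

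Fibronectin, encoded by FN1 (ENSG00000115414.19, chr2:215360440-215436073 of GRCh38, minus strand), is the large adhesive glycoprotein that integrins bind through its RGD loop. In WM164 cells the GFP libraries were at 9212, 9922 and 8977 CPM and the MAFG libraries at 15496, 15704 and 15550 CPM. SKMel28 cells had 8421, 9036 and 8679 CPM with GFP and 13610, 14598 and 14761 CPM with MAFG. In A375 cells the values were 10.02, 10.03 and 9.99 CPM with GFP against 24.1, 21.8 and 22.1 CPM with MAFG. All MAFG libraries lay above the GFP libraries of their line, and the log2 fold changes were 0.73 ± 0.05 (standard error) in WM164, 0.72 ± 0.06 in SKMel28 and 1.17 ± 0.12 in A375. The share of all counts taken by FN1 alone was 0.845 to 0.945% in WM164 control libraries and 1.44 to 1.53% with MAFG. The order of the groups ran from WM164 with MAFG down to A375 with GFP, and the control levels of WM164 and SKMel28 overlapped. The A375 level with MAFG, 22.7 ± 1.26 CPM, was 0.152 to 0.168% of that in SKMel28 cells with MAFG. On the deposited TPM the A375 groups overlapped, at 1.33, 3.04 and 1.95 TPM with GFP and 2.2, 4.75 and 4.07 TPM with MAFG, and the call was lost there (0.58 on log2(TPM + 1)).

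Tenascin-C, encoded by TNC (ENSG00000041982.16, chr9:115019575-115118207, minus strand), is a hexameric glycoprotein that weakens adhesion to fibronectin and binds integrins such as α9β1. WM164 libraries had 940, 981 and 894 CPM with GFP and 1641, 1682 and 1600 CPM with MAFG. SKMel28 libraries had 1726, 1827 and 1747 CPM with GFP and 2918, 3068 and 3124 CPM with MAFG. A375 libraries had 28.8, 24.7 and 23.6 CPM with GFP and 99.2, 91.4 and 93.8 CPM with MAFG. No MAFG library overlapped a GFP library of its line. The log2 fold change was 0.81 ± 0.05 in WM164 and 0.78 ± 0.06 in SKMel28 cells, below the fold limit in both. In WM164 cells it was called on the TPM scales (1.01 on log2(TPM + 1)). In A375 cells it was 1.88 ± 0.11, and the call was lost on the TPM scales (1.55 on log2(TPM + 1)). The changes of TNC and FN1 in WM164 and SKMel28 cells differed by 0.03 ± 0.10 and 0.02 ± 0.08 on the log2 scale. TNC levels were fully ordered, since no 2 neighboring groups overlapped from SKMel28 with MAFG at the top to A375 with GFP at the bottom.

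Osteopontin, encoded by SPP1 (ENSG00000118785.14, chr4:87975667-87983532, plus strand), is a phosphorylated, RGD-containing protein that binds αv integrins and CD44. In A375 cells it went from 0.73, 1.14 and 0.419 CPM (15 to 42 counts) with GFP to 21.3, 26.2 and 27.6 CPM (842 to 1186 counts) with MAFG, a log2 fold change of 5.03 ± 0.28. WM164 cells had 15.9, 11.7 and 16.8 CPM with GFP and 34.1, 34.5 and 34.0 CPM with MAFG, a log2 fold change of 1.21 ± 0.11. The groups were apart in both lines. SKMel28 cells had the highest level, at 174, 158 and 198 CPM with GFP and 182, 187 and 234 CPM with MAFG, where the groups overlapped and the log2 fold change was 0.19 ± 0.09. With MAFG, the A375 level of 25.05 ± 3.31 CPM exceeded that of WM164 control cells, 14.8 ± 2.73 CPM, without overlap.

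SPARC (ENSG00000113140.11, chr5:151661096-151686975, minus strand) encodes a collagen- and calcium-binding glycoprotein. It was the second most abundant of the 10 per length in WM164 and SKMel28 cells, at 679 ± 160 and 403 ± 24.6 TPM with GFP. WM164 libraries had 2015, 2100 and 2097 CPM with GFP and 3219, 3311 and 3201 CPM with MAFG (log2 fold change 0.65 ± 0.05), with the groups apart. In SKMel28 cells the groups overlapped at 749 ± 53.4 CPM with GFP and 697 ± 10.6 CPM with MAFG (-0.10 ± 0.06). The A375 groups were apart at 270 ± 4.83 and 314 ± 15.6 CPM, but the log2 fold change of 0.21 ± 0.08 was not called and its direction turned on the TPM scales, to -0.0031 on log2(TPM + 1).

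Matrix Gla protein, encoded by MGP (ENSG00000111341.9, chr12:14880864-14885857, minus strand), is a vitamin K-dependent inhibitor of calcification. WM164 libraries had 82.8, 88.5 and 94.9 CPM with GFP and 547, 531 and 578 CPM with MAFG, a log2 fold change of 2.64 ± 0.06. SKMel28 libraries had 0.333, 0.59 and 0.448 CPM (10 to 13 counts) with GFP and 8.97, 10.7 and 11.5 CPM (269 to 307 counts) with MAFG, a log2 fold change of 4.53 ± 0.24. The groups did not overlap in either line, and the SKMel28 level with MAFG remained below that of WM164 control cells. The A375 libraries had 0, 0 and 5 counts with GFP and 11, 17 and 2 counts with MAFG, which was too few to test, and the groups overlapped. Per length, MGP was at 646 ± 10.8 TPM in WM164 cells with MAFG, 110th among all genes, and at 14.5 ± 1.34 TPM in SKMel28 cells with MAFG.

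The thrombospondins bind CD36 and CD47 and restrain angiogenesis. THBS1 had the opposite order of lines to FN1, whereas THBS2 in control cells, like FN1, was lowest in A375. THBS1 (ENSG00000137801.10, chr15:39581079-39599466, plus strand) was at 377, 378 and 388 CPM with GFP and 364, 327 and 327 CPM with MAFG in A375 cells, where the MAFG libraries lay below the GFP libraries but the log2 fold change of -0.17 ± 0.08 was not called. SKMel28 cells had 0.766, 0.886 and 1.1 CPM (18 to 32 counts) with GFP and 5.37, 3.69 and 5.66 CPM (103 to 161 counts) with MAFG, without overlap and with a log2 fold change of 2.41 ± 0.27. On the deposited TPM these groups overlapped, at 0.29, 0.12 and 0.79 TPM with GFP and 0.98, 0.35 and 0.52 TPM with MAFG. The call was lost there (0.22 on unfiltered log2(TPM + 1)), but below 1 TPM no change on that scale could pass the fold limit. WM164 libraries were at 0 counts except 1 MAFG library, replicate 2, with 30 counts. Those 30 counts came to 0.291% of the THBS1 level in A375 control cells. THBS1 was among 29 genes at 50 CPM or more in A375 control cells and at 3 counts or fewer in every WM164 control library. These summed to 10, 6 and 11 counts in the WM164 GFP libraries and 1222, 1035 and 1304 counts in the MAFG libraries. Only 7, 7 and 6 of the 29 genes were above 3 counts in the MAFG libraries. The source of the 30 counts was not tested. Control A375 cells had at least 3515-fold more THBS1 than WM164 control cells, counted against a floor of 3 counts per library.

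THBS2 (ENSG00000186340.15, chr6:169215780-169254050, minus strand) was scarce everywhere, at or below 0.343 TPM in each group. A375 cells had 0 counts in the 3 GFP libraries and 82, 62 and 95 counts in the MAFG libraries, at least 24.4-fold higher against the same floor. SKMel28 cells had 24, 11 and 1 counts with GFP and 42, 52 and 31 counts with MAFG, groups that were apart, and the log2 fold change of 1.69 ± 0.61 was called. That call was lost on leaving out GFP replicate 2 or 3 or any MAFG replicate (log2 fold changes from 1.12 to 1.83) and in one model of the 18 libraries (1.69). In WM164 cells, 11, 11 and 12 counts with GFP stood against 15, 35 and 23 with MAFG (1.03 ± 0.50, not called). An antisense gene, THBS2-AS1, shares 31.2% of the exonic bases of THBS2 and had 37 to 54 counts in the WM164 libraries, more than THBS2 itself. It had 8 to 10 counts with GFP and 0 to 35 with MAFG in SKMel28 cells, and 0 with GFP and 3 to 9 with MAFG in A375 cells. Whether reads were counted by strand is not given in the sources used here, so reads of the shared part cannot be told apart.

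Periostin (POSTN, ENSG00000133110.15, chr13:37562583-37598844, minus strand), a fasciclin-domain protein abundant in fibroblast-rich matrix, was found above 3 counts in A375 cells alone. The A375 libraries had 2.32, 1.96 and 1.42 CPM with GFP and 1.32, 1.59 and 1.93 CPM with MAFG, which overlapped (log2 fold change -0.24 ± 0.34). All SKMel28 libraries and the WM164 control libraries were at 0 counts, and 1 WM164 library with MAFG had 3.

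Matrilin 2 (MATN2, ENSG00000132561.14, chromosome 8), an adaptor protein of filamentous matrix networks, showed a large change in 1 line. SKMel28 libraries had 4.53, 3.49 and 3.83 CPM with GFP and 38.8, 42.3 and 38.2 CPM with MAFG, a log2 fold change of 3.32 ± 0.11 with the groups apart. WM164 libraries had 6.96, 7.07 and 5.96 CPM with GFP and 6.99, 7.5 and 6.58 CPM with MAFG, which overlapped (0.07 ± 0.14, or -0.0062 without GFP replicate 3). In A375 cells the counts were 42, 33 and 46 with GFP and 16, 15 and 27 with MAFG. These groups did not overlap, with MAFG lower, and the log2 fold change of -1.19 ± 0.51 was not called in the comparison of the 6 A375 libraries but was called in one model of the 18 libraries (-1.18).

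MIA (ENSG00000261857.7, chr19:40771648-40777490, plus strand) was high in WM164 and SKMel28 cells in both groups and rose with MAFG in A375 cells. A375 libraries had 27, 19 and 27 counts with GFP (0.704, 0.516 and 0.754 CPM) and 278, 259 and 242 counts with MAFG (7.04, 6.87 and 5.64 CPM), a log2 fold change of 3.29 ± 0.26 with the groups apart. WM164 libraries had 58.7, 63.8 and 63.1 CPM with GFP and 78.3, 83.8 and 81.1 CPM with MAFG (0.39 ± 0.06), also apart. SKMel28 libraries overlapped, at 57.0 ± 5.44 CPM with GFP and 50.2 ± 5.51 CPM with MAFG (-0.18 ± 0.09). MIA shares 794 of its 1160 exonic bases with the readthrough gene MIA-RAB4B on the same strand, which had at most 17 counts in any library, and counts by gene may have left out reads of the shared part. On the deposited TPM, A375 cells went from 2.05 ± 0.264 to 17.2 ± 2.57 TPM. SOX10, a transcription factor counted here among the melanocytic markers, also rose in A375 cells, from 8.85 ± 2.35 to 114 ± 24.6 CPM. Its log2 fold change was 3.68 ± 0.21 (adjusted p = 2.12e-05 from edgeR with Benjamini-Hochberg adjustment). SOX10 was the 1 called of 5 melanocytic markers tested there.

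In WM164 cells 8 of the 10 genes passed edgeR's filter on low counts and 2 were called, SPP1 and MGP, both higher (6.94% of all 15919 tested genes were called, 4.94% as higher). The adjusted p alone was passed by 6 of the 8, all higher (16.2% of all genes were), and the libraries of the groups were apart for 7 of 8 (43.5% of all genes). In SKMel28 cells 9 passed the filter and THBS1, THBS2, MGP and MATN2 were called, all higher, against 4.74% of 15523 genes (1.76% higher). In A375 cells 9 passed the filter and SPP1, TNC, THBS2, MIA and FN1 were called, all higher, against 0.665% of 15779 genes (0.646% higher). THBS2, at 0 counts in the A375 GFP libraries, passed the filter through the MAFG libraries alone and could only be called higher. Errors were wider in A375 cells, with a median standard error over all tested genes of 0.176. It was 0.11 in WM164 and 0.119 in SKMel28 cells. The groups were apart for 6 of 9 genes in SKMel28 (43.0% of all genes) and for 8 of 9 in A375 cells (12.3% of all genes), 6 higher and 2 lower (7.41% and 4.88% of all genes). Since the genes were chosen for these changes, nothing is read from their counts against the background. No gene was called in all 3 lines, and SPP1, MGP and THBS2 were each called in 2.

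**Figure D2:**
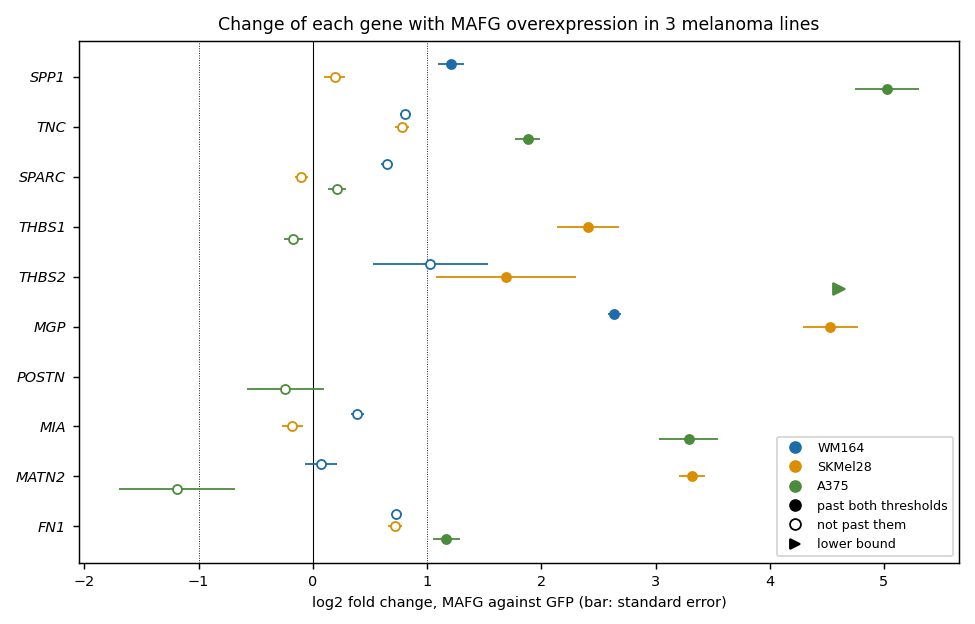
Log2 fold change of each gene with MAFG against GFP in WM164, SKMel28 and A375 cells (points, bars of 1 standard error, filled where past both thresholds, dotted lines at the fold limit, arrowhead for the lower bound of THBS2 in A375). SPP1 changed by 5.03 in A375 but 0.19 in SKMel28 cells, and MATN2 by 3.32 in SKMel28 but -1.19 in A375 cells.

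The size of the change differed between lines for most of these genes. In one edgeR model of the 18 libraries, 3 of 10 genes were called for a different change in WM164 than in SKMel28 cells (5.10% of all genes), 5 of 10 for WM164 against A375 (4.39%) and 6 of 10 for SKMel28 against A375 (4.20%). The SPP1 difference between WM164 and SKMel28 cells, 1.03 ± 0.21, was under the fold limit without WM164 GFP replicate 2 (0.88), SKMel28 GFP replicate 3 (0.94) or SKMel28 MAFG replicate 1 (0.96) or 2 (0.98). SPP1 changed most in A375 cells, as WM164 minus A375 was -3.81 ± 0.27 on the log2 scale and SKMel28 minus A375 was -4.84 ± 0.26. MATN2 and MGP changed more in SKMel28 than in WM164 cells, with WM164 minus SKMel28 at -3.25 ± 0.21 and -1.90 ± 0.36. For FN1, WM164 minus A375 was -0.44 ± 0.09 and SKMel28 minus A375 was -0.46 ± 0.09, within the fold limit. THBS1 in WM164 and POSTN in SKMel28 cells had too few counts for such a comparison to be read.

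Against the levels in SKMel28 cells with MAFG, the genes that rose in A375 cells reached unequal shares. SPP1 in the 3 A375 libraries with MAFG was at 10.6 to 13.7% of the SKMel28 level, MIA at 11.2 to 14.0%, TNC at 3.01 to 3.27% and FN1 at 0.152 to 0.168%. THBS2, the fifth, was at 1.98 ± 0.297 CPM in A375 and 1.48 ± 0.357 CPM in SKMel28 cells with MAFG, which overlapped. Against WM164 cells with MAFG, SPP1 in A375 cells with MAFG was at 62.3 to 80.8%. The pigment cell genes MLANA and TYR, abundant in SKMel28 cells, were at 0 in every A375 library, and DCT was at no more than 0.00382%. Fibroblast markers summed to 11.96 to 14.3 CPM in A375 libraries with GFP and 12.6 to 14.4 CPM with MAFG. In WM164 cells the fibroblast sum was 20.04 to 20.6 CPM with GFP and 12.9 to 13.96 CPM with MAFG, although PDGFRB (log2 fold change 3.05, adjusted p = 5.65e-05) and COL1A2 (2.05, adjusted p = 0.0268, both from edgeR) rose from under 0.3 CPM. In SKMel28 cells it was 11.02 to 12.4 and 18.3 to 21.3 CPM, with COL1A2, COL3A1 and PDGFRB at 3 counts or fewer in all its libraries. Most of the fibroblast sum of WM164 and SKMel28 cells was a single marker, LUM. WM164 libraries had 17.9 ± 0.115 CPM of LUM with GFP and 8.95 ± 0.277 CPM with MAFG. Its log2 fold change there was -1.0 (adjusted p = 3.42e-07 by edgeR), which was not called. SKMel28 libraries had 11.6 ± 0.778 and 19.8 ± 1.66 CPM of LUM (0.77, adjusted p = 5.15e-05 by edgeR), under the fold limit. The melanocytic markers summed to 5368 to 5723 CPM in WM164 libraries with GFP and 3419 to 3617 CPM with MAFG, with MLANA, DCT, TYR and PMEL called lower. The same sum was 5412 to 5715 CPM with GFP and 4772 to 5024 CPM with MAFG in SKMel28 libraries, and 199 to 218 and 267 to 375.03 CPM in A375 libraries. No melanocytic marker was called in SKMel28 cells. PMEL went there from 1696 ± 125 to 1072 ± 79.4 CPM, and S100B rose from 271 ± 21.3 to 404 ± 9.51 CPM. TYR (log2 fold change -0.23), CSPG4 (-0.47) and MITF (-0.2) were also lower and MCAM higher (0.13), with the groups apart. MLANA, DCT and SOX10 overlapped. In WM164 cells MITF fell from 439 ± 15.8 to 279 ± 1.96 CPM (-0.65), under the fold limit. MCAM rose in WM164 cells (0.45), also under it, while SOX10, S100B and CSPG4 overlapped. In A375 cells SOX10 was the 1 called of 5 tested. S100B also went up there, from 0.0709 ± 0.0532 to 0.851 ± 0.331 CPM, with the groups apart. Its log2 fold change of 3.52 ± 0.79 was not called (adjusted p = 0.0998 by edgeR). MITF (28.6 ± 1.35 CPM with GFP, 27.4 ± 6.18 with MAFG) and MCAM (143 ± 3.05 and 134 ± 23.1 CPM) overlapped in A375 cells. CSPG4 overlapped likewise (25.5 ± 3.83 and 33.2 ± 7.69 CPM). The part of the fibroblast and melanocytic markers in the changes above was not tested. In bulk RNA, fewer cells of a type and less RNA per cell cannot be told apart.

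**Figure D3:**
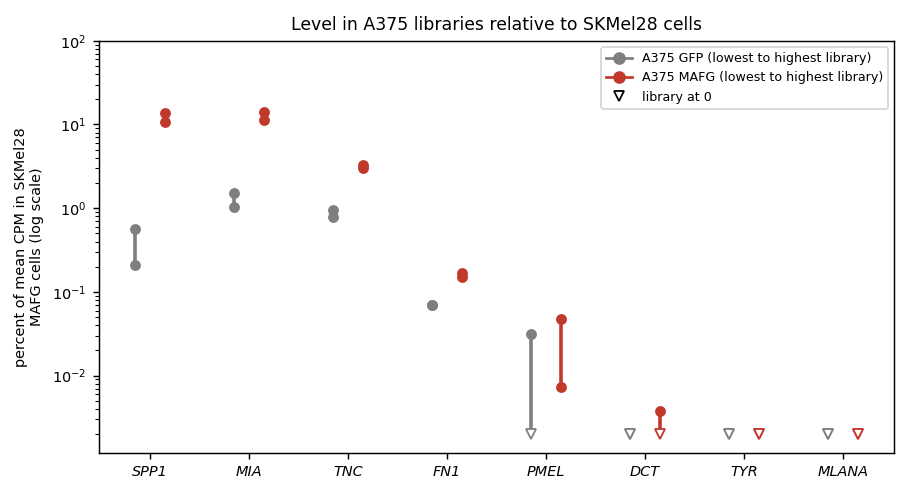
Level of 8 genes in A375 libraries as a percent of their mean CPM in SKMel28 cells with MAFG (log scale, lines from the lowest to the highest of 3 libraries, open triangles for libraries at 0). With MAFG, SPP1 and MIA lay above 10%, TNC near 3% and FN1 below 0.2%, while TYR and MLANA were at 0.

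The lists of relatives, receptors and modifying enzymes were chosen by role, with earlier results of these data known. Their calls, adjusted p-values and medians are therefore descriptions and no independent support. A tested gene at 3 counts or fewer in 1 group passed the filter through the other group alone and could be called in 1 direction only. Relatives of the 10 genes were followed in a list of 35 further matricellular genes (SPARC-like, tenascin, thrombospondin, CCN, fibulin, matrilin, bone glycoprotein and MIA families). In WM164 cells 12 were tested and 5 rose (4.94% of all genes were called higher), among them MATN3 (matrilin 3, log2 fold change 2.53, adjusted p = 8.67e-05), FBLN1 (fibulin 1, 2.03, adjusted p = 3.66e-05) and CCN2 (connective tissue growth factor, 1.70, adjusted p = 8.75e-12), all from edgeR's quasi-likelihood test. The call of a further one, THBS4, was lost without any single library (log2 fold changes from 1.08 to 1.28). The median log2 fold change of the 12 was 0.77, that of all tested genes about 0. In SKMel28 cells 15 were tested, 2 rose and 3 fell (4.74% of all genes were called in either direction), with a median of 0.42. CCN1 (1.87, adjusted p = 3.74e-07) and CCN3 (1.14, adjusted p = 1.81e-08), both of the CCN family, rose there in the same edgeR test. FBLN5, a fibulin of elastic fibers, fell by 3.21 (adjusted p = 1.44e-08, edgeR). OTOR, a relative of MIA, and FBLN1 were at 0 counts in the SKMel28 libraries with MAFG, at least 6.27-fold and 4.85-fold lower. FBLN1 thus moved in opposite directions in WM164 and SKMel28 cells. CCN2 did so too, as it fell in SKMel28 cells from 32.0 ± 1.09 to 18.2 ± 2.87 CPM with the groups apart. Its log2 fold change there was -0.81, under the fold limit. These differences between the lines were not tested. In A375 cells 0 of 15 relatives were called by edgeR, with 3 at an unadjusted p under 0.05 and 0 called by DESeq2, and the median was -0.01. The wider errors of A375 cells, with a median standard error of 0.176 over all tested genes, leave more changes uncalled there.

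Receptors for the 10 proteins formed a list of 17 integrin subunits and other surface proteins. ITGA9, the α9 integrin subunit that pairs with β1 to bind tenascin-C and osteopontin, rose from 6.48 ± 1.22 to 35.0 ± 1.27 CPM in WM164 cells (log2 fold change 2.42, adjusted p = 1.38e-11) and from 0.091 ± 0.071 to 5.88 ± 0.209 CPM in A375 cells (5.97, adjusted p = 6.43e-05), by edgeR's test. ITGB3, which pairs with αv, rose in A375 cells from 0.311 ± 0.313 to 10.3 ± 2.27 CPM (5.03, adjusted p = 0.0026), and ITGB8 by 1.40 (adjusted p = 0.0112) in the same edgeR test. The ITGB8 call was lost without any 1 of the GFP libraries or MAFG replicate 2 (1.27 to 1.46). In A375 cells these were the 3 called of 13 tested (0.665% of all genes), with a median of 0.30, and in WM164 cells 2 of 13 were called (6.94% of all genes), with a median of 0.56. The other was ITGA4, a fibronectin-binding subunit (1.19, adjusted p = 1.03e-11, edgeR). SKMel28 cells had 3 of 14 called (4.74% of all genes), all lower, with a median of -0.27. These were the thrombospondin receptor CD36 (-4.50, adjusted p = 1.75e-09), the heparan sulfate proteoglycan SDC1 (-2.22, adjusted p = 8.93e-07) and ITGA4 (-1.04, adjusted p = 5.41e-07), by edgeR, with ITGA4 at -0.97 and under the fold limit without MAFG replicate 1.

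Of 11 enzymes that modify these proteins, FAM20C, the Golgi kinase of secreted phosphoproteins such as osteopontin, rose in WM164 cells from 8.68 ± 0.726 to 41.2 ± 1.34 CPM (log2 fold change 2.25, adjusted p = 2.25e-12) and in SKMel28 cells from 0.294 ± 0.194 to 2.51 ± 0.183 CPM (3.05, adjusted p = 7.58e-05), by edgeR. WM164 cells had 3 of 10 called, all higher (4.94% of all genes were), and the other two were the transglutaminases TGM2 (1.52, adjusted p = 0.000355, edgeR) and F13A1, which crosslink fibronectin. F13A1 was at 3 counts or fewer in the GFP libraries and at least 14.6-fold higher with MAFG. The enzymes' medians were 0.16 in WM164, -0.10 in SKMel28 (1 of 9 called, as higher, against 1.76% of all genes) and -0.01 in A375 cells. In A375 cells 0 of 10 enzymes were called by edgeR, with 3 at an unadjusted p under 0.05 and 0 called by DESeq2.

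**Figure D4:**
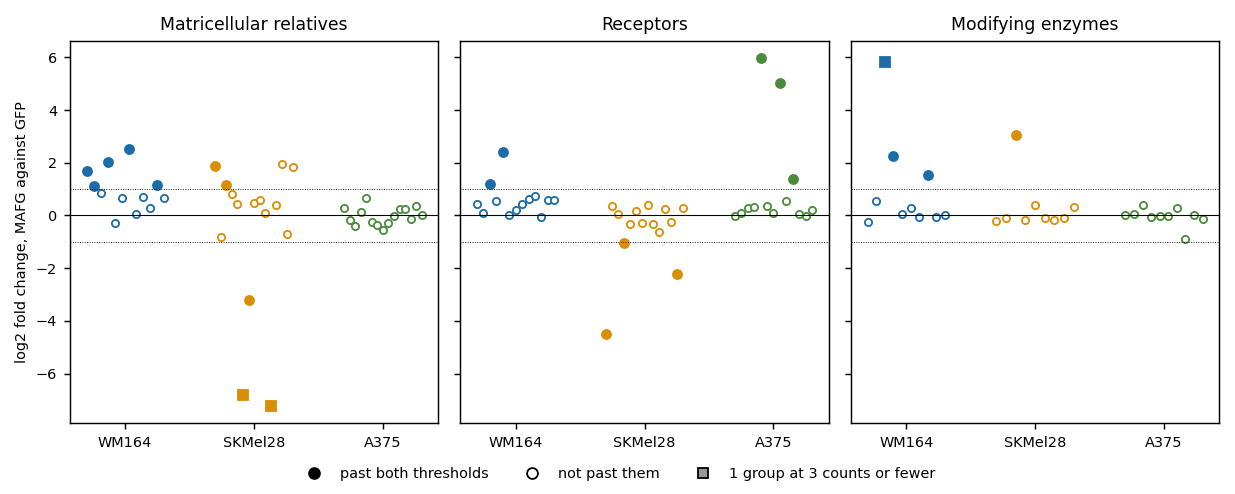
Log2 fold change with MAFG against GFP of the tested matricellular relatives, receptors and modifying enzymes in the 3 lines (1 point per gene in alphabetical order, filled where past both thresholds, squares where 1 group had at most 3 counts in every library, whose fitted values are no bound). ITGA9 is the top point of the A375 receptors at 5.97, and OTOR and FBLN1 are the lowest squares of the SKMel28 relatives.

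Among the other protein-coding genes, those with the profile most like each of the 10 were found by the root-mean-square difference of mean log2 CPM, centered on each gene, over the 6 groups. ITGA9 (0.83) and EVI2A (0.93) were nearest to SPP1, whose own profile had a root-mean-square of 2.65. For MIA the nearest were MYH14 (0.26) and SOX10 (0.28), for TNC SPRR2D (0.27) and ZNF365 (0.31), and for FN1 ZNF704 and S100A1 (0.47 each). SPARC was nearest to MST1 (0.13) and TCF7 (0.15), and MATN2 to NGFR (0.57) and FAM19A5 (0.73). CCN1 (0.63) and MARCH4 (0.65) were nearest to THBS1, and PMEPA1 (0.69) and MRGPRX3 (0.77) to THBS2. For MGP, whose own profile had a root-mean-square of 4.43, the nearest were FXYD3 (1.37) and EPHA3 (1.51). POSTN, at 0 in most libraries, was nearest to KCNV1 and GNGT2 (0.12 each). Own profiles ran from 1.31 for SPARC to 4.71 for THBS1, so differences of unlike genes are not on 1 scale. Among the 10 themselves TNC and MIA were the closest pair (0.73). The 6 groups come from 3 lines, so each profile holds differences between lines as well as changes with MAFG.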

How the data were processed

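The RNA-seq data comprise 3 libraries for each of 2 vectors, MAFG and GFP, in each of 3 melanoma lines. Per the labels, reads were processed with cutadapt 1.8.1, STAR 2.7.7a and RSEM 1.3.0. According to the methods, the authors aligned them to GRCh38, and featureCounts gave the number of unique reads for each gene. The count values they deposited are not normalized, and the deposited TPM values are scaled per gene length and library. The methods name a strand-specific kit and the labels one without strand, and how strand entered the counting is not given in the sources used here. Of the gene identifiers, 99.4% were in GENCODE release 44, the source of positions.

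Within a line, the MAFG libraries were set against the GFP libraries in edgeR 4.0.16 (R 4.3.3, TMM, filterByExpr, quasi-likelihood F test, Benjamini-Hochberg adjustment over all tested genes). Calls required a log2 fold change beyond 1 in either direction and an adjusted p no greater than 0.05, the study's thresholds. Levels in GFP cells and changes were compared between lines in one edgeR model of the 18 libraries. A group with at most 3 counts in every library was at the floor, and folds against it are bounds. Alternatives were DESeq2 1.42.0 (the study's tool), its size factors, other count filters, no fold limit, a replicate block, one model of the 18 libraries, limma 3.58.1 on log2(TPM + 1) or log2(TPM + 0.1), and each library left out. The 10 genes and the lists were chosen with earlier results of these data known. Named genes are the 10, MAFG, markers, up to 3 called genes per list, line and direction with the largest change, and the 2 nearest profiles per gene.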

Additional observations from a re-analysis of the deposited data

Results flagged for a closer look

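The change with MAFG differed between lines, past both thresholds in the edgeR model of 18 libraries, in 14 comparisons of these genes. WM164 minus SKMel28 was 1.03 for SPP1, -1.90 for MGP and -3.25 for MATN2 (log2 scale). WM164 minus A375 was -3.81 for SPP1, -1.08 for TNC, -2.91 for MIA and 1.25 for MATN2. SKMel28 minus A375 was -4.84 for SPP1, -1.10 for TNC, 2.58 for THBS1, -3.48 for MIA and 4.50 for MATN2. THBS2 differed by -7.93 between WM164 and A375 and by -7.28 between SKMel28 and A375, fitted values that rest on 0 counts in the A375 control libraries and are no bound. As the genes were chosen with these changes known, the values are descriptions.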

How the results depend on the processing

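Among the 10 genes, leaving out each library gave 2 called in WM164, 3 to 4 in SKMel28 (THBS2 was the one lost) and 5 in A375, and 2 to 3, 5 to 6 and 6 for the differences of change in WM164 against SKMel28, WM164 against A375 and SKMel28 against A375. GFP levels gave 4, 10 and 10. The gain for WM164 against A375 was THBS1, fitted at 6.64 to 7.27 without A375 MAFG replicate 1 or WM164 MAFG replicate 1 or 3 and resting on 1 library with counts. With no limit on the fold change, 6 were called in WM164 and 5 for the difference of change between WM164 and SKMel28. On log2(TPM + 1), log2(TPM + 0.1) and unfiltered log2(TPM + 1), 3 were called in WM164, where TNC was gained (1.01 to 1.02), and 2 in SKMel28 cells. On the same scales 2 were called in A375 cells, where TNC (1.55 to 1.81) and FN1 (0.58 to 0.78) kept their direction and lost the call. THBS1 in SKMel28 (0.22) and THBS2 in SKMel28 (0.18) and A375 cells (0.42) lost their calls on the unfiltered scale. They were below 1 TPM in every library of these lines. With 1 added to the TPM, no change of theirs could therefore pass the fold limit, and these losses say nothing about the changes. On the filtered TPM scales they were not tested. On log2(TPM + 1), 3 were called for the difference of change between WM164 and A375 and 6 for the GFP level of SKMel28 against A375. The TPM scales moved the median of all genes to 0.14 to 0.16 in WM164, -0.14 to -0.17 in SKMel28 and -0.10 to -0.12 in A375 cells with the filter. SPARC in A375 cells turned to -0.0031, -0.0029 and -0.0031 on the 3 TPM scales, and MATN2 in WM164 cells to -0.0062 without GFP replicate 3 (range -0.0062 to 0.11 over the left-out libraries). The cause was not tested.

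For the lists, leaving out each library gave 4 to 5 relatives, 2 receptors and 3 enzymes called in WM164, 5 to 6, 2 to 3 and 1 in SKMel28, and 0, 2 to 3 and 0 in A375. Gains were EFEMP2 without WM164 GFP replicate 3 (1.03) and EFEMP1 without SKMel28 GFP replicate 3 (1.07). With no fold limit, 9 receptors and 5 enzymes were called in WM164 and 9 relatives, 10 receptors and 3 enzymes in SKMel28. Requiring 10 counts in every library left 3 relatives and 0 enzymes in SKMel28 and 1 receptor in A375. On log2(TPM + 1), with or without the filter, 1 relative was called in WM164, and on the 3 TPM scales 1 enzyme in WM164, 2 relatives and 0 enzymes in SKMel28. A375 receptors were 1, 1 and 0 on log2(TPM + 1), log2(TPM + 0.1) and unfiltered log2(TPM + 1). DESeq2, its size factors and the unfiltered counts kept every count within 1.5 times.

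Deviations of same-numbered libraries correlated at -0.032 to 0.013 and those of unlike-numbered libraries at -0.028 to 0.05. These values do not tell whether same-numbered libraries were prepared together. With the replicate number as a block, 2, 4 and 5 of the 10 genes were called in WM164, SKMel28 and A375. Genes with few counts (THBS2, POSTN, and MGP in A375) are limited by depth. The A375 MAFG libraries were uneven. Set against sampling noise, replicate 1 differed from replicates 2 and 3 by a mean chi-square per gene of 68.7 and 96.7. Replicates 2 and 3 differed by 15.8, and the cause was not tested.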
